A study of Drosophila melanogaster with 19 samples.

Results

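The transcripts of 10 genes of programmed cell death and of the *Drosophila* p53 response were followed across 19 embryo libraries of 5 genotypes. They were taken by symbol from a list of 10 names and matched to gene identifiers, and all 10 were found among the 17807 genes of the table. They comprise the death genes *rpr* (reaper), *hid* (head involution defective, also known as *W*), *grim* and *skl* (sickle), the inhibitor of apoptosis *Diap1*, the caspases *Dronc* and *Drice*, the transcription factor *p53*, and *Corp* (companion of reaper) and *Xrp1*, both known as targets of p53 after irradiation.

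In flies, most cells that die in development do so because 1 or more of the death genes is transcribed. Their small proteins bind Diap1, which otherwise holds the initiator caspase Dronc and the effector caspase Drice in check. DNA damage raises *rpr* and other death genes through p53, the checkpoint kinases act upstream of it, and glia and hemocytes (blood cells) clear the corpses. In the embryo, developmental cell death starts at about the time of germ band retraction, which falls within the stages collected here.

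The embryos were at stages 12 to 14 and were picked by hand for GFP, which *act-Gal4* drove through *UAS-10XGFP* in all 5 genotypes. The null embryos (n = 4) carried the *chiffon* alleles *DsRed* and *ETBE3* over each other and no *chiffon* transgene. FLWF24 (n = 4), ΔN (n = 4) and FL (n = 3) embryos carried the same 2 alleles and 1 copy of a *chiffon* transgene under the regulatory regions of *chiffon* itself. In FLWF24 translation of the long product is stopped early, and in ΔN its N-terminal region is deleted. Both therefore make Chiffon-B, a subunit of the CHAT histone acetyltransferase complex, but not Chiffon-A, the partner of the replication kinase Cdc7, whereas FL encodes both products. WT embryos (n = 4) carried neither allele. Each library came from a small pool of whole embryos, which the labels call biological replicates. In whole embryos, fewer cells of a type and less RNA per cell cannot be told apart.

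The libraries held 5495395 to 21791117 gene counts, and the reads carried no molecular identifiers, so that counting floors cover counting error only. Levels are given as CPM, the counts of a gene relative to the TMM-scaled gene total of its library in the usual unit of edgeR. *chiffon* itself was measured first, to check the labels. It lay between 22.3 and 38.0 CPM in the null libraries and between 213 and 549 CPM in the other 15. Among these, ΔN had the highest mean, 445 CPM, against 238 in FL, 254 in FLWF24 and 251 in WT, although ΔN replicate 4 was at 250 CPM. The smallest libraries, ΔN replicate 4 and null replicate 1, also had the largest shares of counts outside genes (96.0% and 92.6%) and of rRNA among gene counts (6.08% and 6.77%). A stage score, the mean log2 level of late muscle and cuticle genes minus that of early patterning genes, averaged 3.69 ± 1.52 in null (SD, n = 4), 0.31 ± 1.29 in FLWF24 (n = 4), -0.13 ± 2.07 in ΔN (n = 4), -1.63 ± 0.49 in FL (n = 3) and 1.25 ± 1.51 in WT (n = 4). Summed levels of 9 muscle markers ran from 9087 to 29050.1 CPM in null and from 1166 to 10394 CPM in the other 15 libraries. Most of these markers are also late genes of the stage score, so the sum and the score are not independent. None of the 7 neuron, 9 muscle, 8 hemocyte and 8 epidermis markers was without counts.

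All 10 genes were detected in every library, with 12 counts (*Corp*, null) as the lowest and 12132 (*Xrp1*, null) as the highest value, and all passed the filter on low counts. Per kb of annotated exon, over all 19 libraries, *Diap1* stood far above the rest at 211 ± 30.3 CPM per kb (SD, n = 19). *Xrp1* (77.3 ± 41.2 CPM per kb) and *rpr* (61.3 ± 28.9) came next and overlapped in their spread. *Drice* (33.1 ± 13.1), *hid* (32.2 ± 10.5), *Dronc* (21.2 ± 6.56) and *skl* (17.3 ± 6.77) formed a middle range, in which the means of *Drice* and *hid* and those of *Dronc* and *skl* differed by less than 1 SD, while *hid* and *Dronc* differed by more than the SD of each. *Corp* (7.96 ± 5.27), *grim* (7.61 ± 2.76) and *p53* (6.12 ± 2.57) were the lowest and did not differ from each other beyond their spread. The inhibitor was thus more abundant per kb than any single death gene in each genotype. It was also above the sum of the 4 death genes in every library, by a ratio of 2.46 ± 1.37 in null, 1.99 ± 0.514 in FLWF24, 2.02 ± 0.355 in ΔN, 1.42 ± 0.348 in FL and 1.87 ± 0.336 in WT, with ranges that overlapped between null (1.38 to 4.23) and each other genotype.

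**Figure D1:**
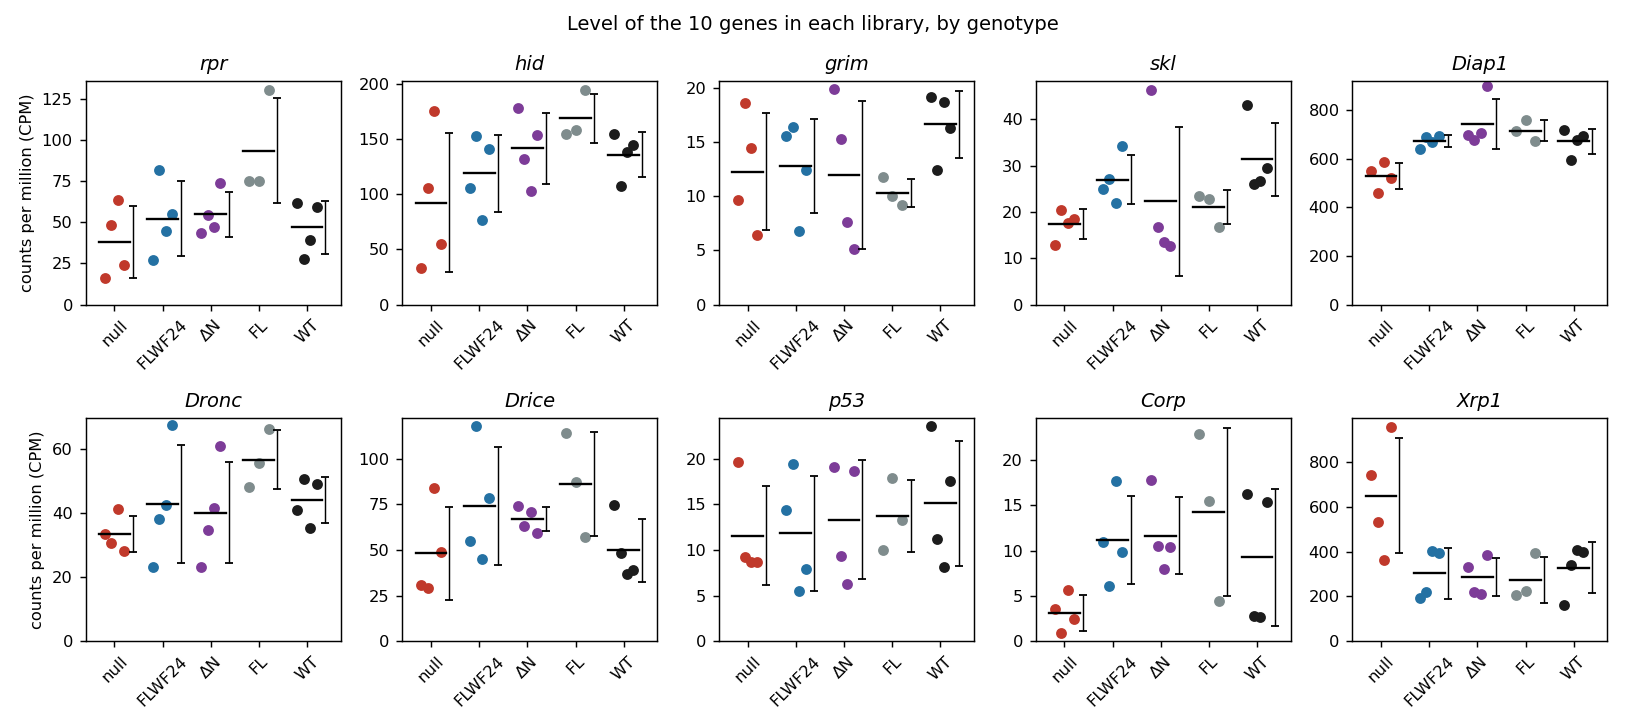
Level of each of the 10 genes in CPM (vertical axis, from 0) in every library, with genotypes in the order null, FLWF24, ΔN, FL and WT. Points are libraries, horizontal lines are group means and bars to their right show 1 SD. *Diap1* is lower in all 4 null libraries (458 to 587 CPM) than in the other 15 (597 to 899 CPM), whereas null *Xrp1* spreads from 364 to 957 CPM.

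The 4 death genes lie on chromosome arm 3L in an interval of 272198 bases (BDGP6, 18167745 to 18439942), all on the minus strand. *hid* spans 18167745 to 18185641 with 4018 exon bases in 4 blocks. *grim* (18302719 to 18304417, 1699 bases), *rpr* (18397535 to 18398435, 901 bases) and *skl* (18438561 to 18439942, 1382 bases) each have a single exon block. The interval holds 17 annotated genes. Only the death genes had more than 218 counts summed over the 19 libraries: *hid* had 32525, *rpr* 13893, *skl* 5897 and *grim* 3210. The other 13 genes of the interval had 0 to 218 counts each, among them the protein-coding genes *CG5103* (0 counts), *CG7320* (21), *CG13700* (23) and *CheA75a* (85). Of the exon bases of *grim*, 541 are shared on the same strand with a long noncoding RNA that had 0 counts and 749 lie opposite an antisense RNA with 165 counts. Values of *grim* are therefore less certain, since a read that falls on both genes can be left uncounted. *Diap1* has 347 and *p53* 812 such bases opposite antisense RNAs of 175 and 214 counts.

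**Figure D2:**
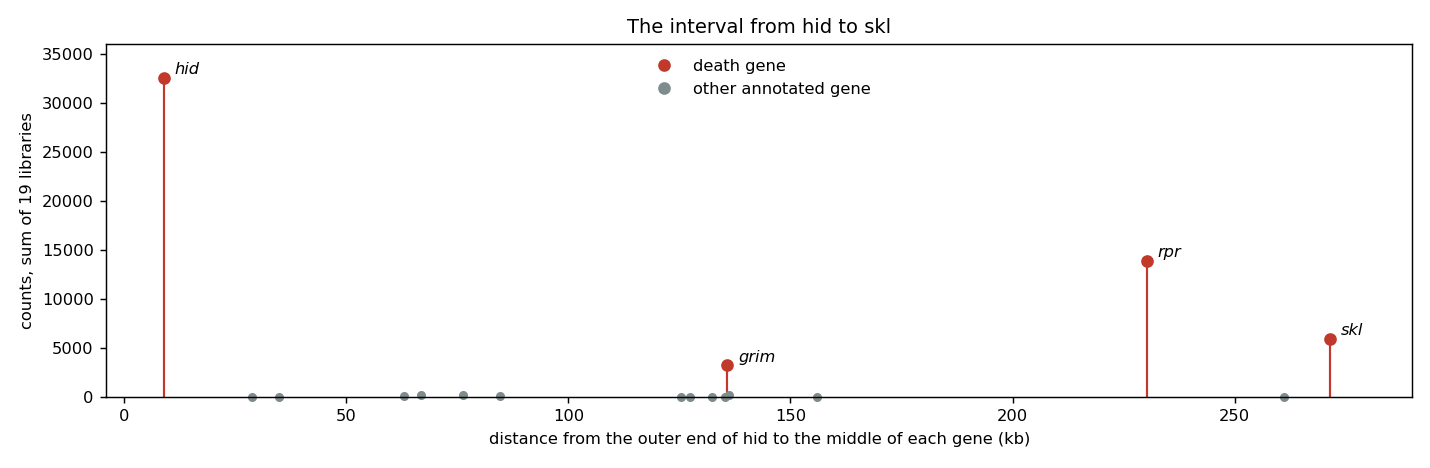
Counts summed over the 19 libraries (vertical axis, linear) of the 17 genes annotated between the outer ends of *hid* and *skl*, placed by the distance of their middle from the outer end of *hid* (kb). The 4 death genes carry 3210 to 32525 counts and no other gene of the interval more than 218.

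*rpr*, whose protein binds Diap1 and leads to its breakdown, was at 16.2, 48.1, 63.5 and 24.2 CPM in null replicates 1 to 4, against 75.2, 75.2 and 130.2 CPM in FL and 61.8, 27.7, 39.0 and 59.1 CPM in WT. All null libraries lay below all FL libraries, but their range (16.2 to 63.5 CPM) took in that of WT (27.7 to 61.8 CPM). FLWF24 had 27.3, 81.8, 44.9 and 55.2 CPM and ΔN 43.5, 54.4, 47.4 and 73.8 CPM. Every ΔN library was below every FL library, while FLWF24 overlapped with both controls. The fit held 1 factor of unwanted variation, which takes up differences between replicates, and a gene was called at an adjusted p under 0.05 with a log2 fold change of at least 0.5 in size. *rpr* was not called in null against FL, with a log2 fold change of -0.81 (SE 0.46, 95% interval -1.77 to 0.15, adjusted p = 0.518). Against WT the value was -0.05 (SE 0.38, interval -0.83 to 0.73, adjusted p = 0.985). FL in turn stood above WT in all of its libraries, with a log2 fold change of 0.76 (SE 0.40, unadjusted p = 0.0716, adjusted p = 0.609).

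*hid*, the one of the 4 known to be inactivated by MAPK signalling, had 33.3, 106, 175 and 55.2 CPM in null. It had 105, 152, 76.6 and 140.4 CPM in FLWF24, 178, 132, 102 and 154 CPM in ΔN, 154, 158 and 194 CPM in FL and 154, 107, 138 and 144 CPM in WT. The null libraries thus spanned the values of the other genotypes, apart from 1 library each of ΔN and FL that were higher. As for *rpr*, null replicates 1 and 4 were the lowest and replicate 3 was the highest of the null libraries, and these 2 low libraries had the highest stage scores of all (5.07 and 4.73, against 1.77 in replicate 3). In null *hid* had a log2 fold change of -0.31 against FL (SE 0.38, adjusted p = 0.842) and -0.32 against WT (SE 0.31, adjusted p = 0.76). All FLWF24 libraries were below all FL libraries, with a fitted log2 fold change of -0.23 (SE 0.34, adjusted p = 1).

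*grim*, which like *rpr* acts on Diap1, was the least abundant death gene per kb. It had 9.64, 18.6, 14.4 and 6.39 CPM in null, 15.6, 16.4, 6.83 and 12.4 CPM in FLWF24, 19.9, 15.3, 7.62 and 5.10 CPM in ΔN, 11.7, 10.04 and 9.20 CPM in FL and 19.1, 12.4, 18.7 and 16.3 CPM in WT. Null, FLWF24 and ΔN overlapped with both controls, while FL lay below WT in every library. The fitted log2 fold change was 0.99 in null against FL (SE 0.69, adjusted p = 0.622), -0.06 in null against WT (SE 0.54, adjusted p = 0.986) and -1.05 in FL against WT (SE 0.59, adjusted p = 0.643).

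*skl*, which belongs to the same family by its N-terminal Diap1-binding motif, had 12.8, 20.4, 17.6 and 18.5 CPM in null. It had 24.9, 27.1, 21.9 and 34.2 CPM in FLWF24, 46.3, 16.9, 13.4 and 12.7 CPM in ΔN, 23.5, 22.9 and 16.8 CPM in FL and 43.0, 26.1, 26.8 and 29.6 CPM in WT. The null libraries were all below the WT libraries and overlapped with FL, which was also below WT throughout. ΔN held both the highest and the lowest library of the 19. The log2 fold change was -0.72 in null against WT (SE 0.43, interval -1.61 to 0.16, adjusted p = 0.54), -0.05 in null against FL (SE 0.53, adjusted p = 0.994) and -0.67 in FL against WT (SE 0.44, adjusted p = 0.737).

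Of the 6 pairs among the death genes, 2 varied together between libraries. Over the 15 libraries outside null, *grim* and *skl* were correlated with Pearson's r = 0.77 (p = 0.00078, adjusted 0.00468) and Spearman's rho = 0.854 (p = 0.00018, adjusted 0.00108), from 100000 permutations and adjusted over the 6 pairs. Without the 2 libraries farthest from the median of *grim* r was 0.748, and after removal of the genotype means it was 0.719. *rpr* and *hid* were correlated with r = 0.664 (p = 0.00736, adjusted 0.0221) and rho = 0.661 (p = 0.0084, adjusted 0.0252). That relation was at r = 0.518 without the 2 farthest libraries and at 0.584 within genotypes. The other 4 pairs gave r between -0.27 and 0.29, with adjusted p of 0.435 or more, although after removal of the genotype means *hid* was at r = 0.526 with *grim* and at 0.513 with *skl*. Libraries share depth and composition, and both values of a pair come from the same library.

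**Figure D3:**
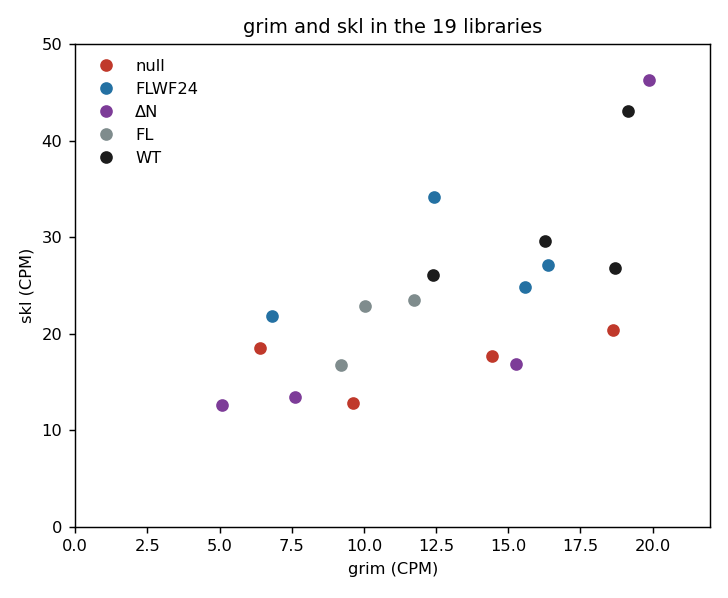
*skl* (vertical axis, CPM) against *grim* (horizontal axis, CPM) in the 19 libraries, coloured by genotype. The ΔN and WT libraries with the most *grim* (19.9 and 19.1 CPM) also had the most *skl* (46.3 and 43.0 CPM), and over the 15 libraries outside null r on log2 values was 0.77.

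By Pearson's r of log2(CPM + 1) over all 19 libraries, the tested genes most like *rpr* were *Usp5* (0.866), *dmrt99B* (0.841) and *CG4293* (0.823). For *hid* they were *CG32486* (0.927), the gap gene *kni* (0.925) and the gap junction gene *Inx3* (0.916), for *grim* *CG30338* (0.796), *CG15011* (0.765) and *Sirt6* (0.744), and for *skl* *CG5274* (0.849), *CG7668* (0.788) and *hng2* (0.782). *kni* is also 1 of the early genes of the stage score.

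*Diap1* (3L, 16038410 to 16051034, minus strand), a ubiquitin ligase that binds and restrains caspases, was the most even of the genes and the only one to separate null from all other genotypes. It had 549, 458, 587 and 520.5 CPM in null. FLWF24 had 639, 692, 671 and 695 CPM, ΔN 697, 679.7, 707 and 899 CPM, FL 715, 761 and 673 CPM and WT 719, 597, 678 and 693 CPM. The highest null library (587 CPM) was just below the lowest of the other 15 (WT replicate 2, 597 CPM), and the mean was 528.6 ± 54.6 CPM in null (SD, n = 4) and 701 ± 65.8 CPM in the others (n = 15), or 24.6% lower in null. The log2 fold change was -0.44 in null against FL (SE 0.19, interval -0.84 to -0.04, unadjusted p = 0.0322, adjusted p = 0.357) and -0.35 in null against WT (SE 0.16, interval -0.67 to -0.02, unadjusted p = 0.0363, adjusted p = 0.387). Against the other 4 genotypes it was -0.41 (SE 0.15, interval -0.71 to -0.11, unadjusted p = 0.00987, adjusted p = 0.142), so that *Diap1* was not called in any of the 3. DESeq2 gave -0.40 with an adjusted p of 0.0183 in the last of these, which is also below the fold change of a call. FLWF24 and ΔN had fitted log2 fold changes of -0.09 to 0.15 against FL and WT, and ΔN replicate 4 stood above all other libraries.

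*Dronc* (3L, 9968479 to 9971002, plus strand), the initiator caspase, had 33.6, 30.5, 41.3 and 28.3 CPM in null, against 48.2, 55.7 and 66.3 CPM in FL and 41.1, 50.8, 35.3 and 49.0 CPM in WT. All null libraries were below all FL libraries, and null replicate 3 lay within the range of WT. The fit gave a log2 fold change of -1.05 in null against FL (SE 0.40, interval -1.88 to -0.23, unadjusted p = 0.0145, adjusted p = 0.26), -0.54 in null against WT (SE 0.32, adjusted p = 0.547) and -0.65 against the other 4 genotypes (SE 0.30, unadjusted p = 0.0392, adjusted p = 0.261). FLWF24 ran from 23.3 to 67.5 CPM and ΔN from 23.2 to 60.8 CPM, each over the full range of null.

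*Drice* (3R, 29799658 to 29801584, plus strand), the main effector caspase, had 30.6, 29.1, 84.1 and 48.6 CPM in null, against 114, 87.4 and 56.8 CPM in FL and 74.5, 48.6, 37.0 and 39.2 CPM in WT. The null libraries overlapped with both controls. The fit gave -0.21 on the log2 scale in null against FL (SE 0.39, adjusted p = 0.915) and 0.27 in null against WT (SE 0.31, adjusted p = 0.815). FLWF24 spread from 45.2 to 118 CPM, while ΔN was even, from 59.5 to 74.0 CPM.

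*p53* (3R, 23049657 to 23054082, minus strand), the transcription factor of the damage response, had 19.6, 9.20, 8.67 and 8.68 CPM in null. FLWF24 had 14.4, 19.4, 5.55 and 7.93 CPM, ΔN 19.1, 9.29, 6.26 and 18.7 CPM, FL 9.94, 17.9 and 13.3 CPM and WT 23.6, 11.2, 8.14 and 17.5 CPM. Every genotype spread over a similar range, and the group means, 11.6 to 15.1 CPM, differed by less than the SD within each group (3.98 to 6.87 CPM). In null the log2 fold change was 0.02 against FL (SE 0.82, adjusted p = 1) and -0.21 against WT (SE 0.67, adjusted p = 0.962). The 95% interval against FL ran from -1.67 to 1.71, so that a difference of either sign within these bounds remained possible.

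*Corp* (X, 8269898 to 8271409, minus strand), whose protein is known to limit p53 activity, varied most between libraries of the 10 genes (coefficient of variation 66.2%, against 14.3% for *Diap1*). It had 3.59, 0.883, 5.65 and 2.45 CPM in null (12 to 114 counts), 10.99, 6.14, 17.7 and 9.89 CPM in FLWF24, 17.8, 10.5, 7.96 and 10.4 CPM in ΔN, 22.9, 15.5 and 4.45 CPM in FL and 16.3, 2.79, 2.66 and 15.4 CPM in WT. The null range (0.883 to 5.65 CPM) took in FL replicate 4 and WT replicates 2 and 3. Of the 10 genes it had the log2 fold changes of largest size, with -1.97 in null against FL (SE 1.02, interval -4.08 to 0.15, adjusted p = 0.453), -1.42 in null against WT (SE 0.86, adjusted p = 0.553) and -1.71 against the other 4 genotypes (SE 0.79, interval -3.34 to -0.08, unadjusted p = 0.0405, adjusted p = 0.266).

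*Xrp1* (3R, 18914968 to 18926989, plus strand), a bZIP factor of the responses to irradiation and to ribosomal protein loss, was the only gene of the 10 with a higher mean in null than in every other genotype. It had 743, 534, 364 and 957 CPM in null. It had 192, 220.1, 404 and 393 CPM in FLWF24, 331, 218, 211 and 387 CPM in ΔN, 205, 223 and 393 CPM in FL and 163, 339, 409 and 398 CPM in WT. Of the null libraries 3 were above all other 15 libraries, and null replicate 3 was within their range. The mean was 649 ± 257 CPM in null (SD, n = 4), against 274 ± 103 CPM in FL (n = 3) and 327 ± 114 CPM in WT (n = 4). In the fit with the factor the log2 fold change was smaller than the ratio of these means, with 0.14 in null against FL (SE 0.29, interval -0.46 to 0.75, adjusted p = 0.923), 0.42 in null against WT (SE 0.23, interval -0.06 to 0.90, adjusted p = 0.507) and 0.31 against the other 4 genotypes (SE 0.22, adjusted p = 0.515).

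The fit called 0 of the 10 genes in null against FL, where 0.551% of the 11978 tested genes were called, 0 in null against WT (0.726% of all genes) and 0 in null against the other 4 genotypes (1.83%). DESeq2 also called 0 in each of the 3. At an unadjusted p under 0.05, 2 of the 10 were lower in null against FL (3.96% of all genes), 1 against WT (5.38%) and 3 against the other 4 genotypes (5.65%), and 0 were higher, against 8.21%, 6.36% and 11.3% of all genes in these comparisons. The median log2 fold change of the 10 was -0.26 in null against FL (all genes 0.05), -0.27 in null against WT (all genes 0.03) and -0.26 against the other 4 genotypes (all genes 0.10). By CPM alone, 3 of the 10 did not overlap between null and FL, all lower (*rpr*, *Diap1* and *Dronc*, against 8.46% of all genes lower without overlap). Between null and WT there were 2, both lower (*skl* and *Diap1*, against 4.15%), and between null and the other 15 libraries 1, *Diap1* (0.609%). The 3 comparisons share the null libraries and are not independent.

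The calls depended on the factor of unwanted variation. Without it, *Xrp1* was called higher in null against FL (1.25, adjusted p = 0.0476) and against the other 4 genotypes (1.13, adjusted p = 0.00537), *rpr* was called lower in null against FL (-1.29, adjusted p = 0.0497) and *Corp* lower against the other 4 genotypes (-1.86, adjusted p = 0.0437). In that fit *Diap1* passed the adjusted p against the other 4 genotypes (0.0125) but not the fold change. Over all genes the same change of model took the number called in null against FL to 1308, against 66 with the factor. The factor was correlated with the stage score over the 19 libraries (r = -0.91), and null had the highest mean score. The late genes of the score summed to a mean of 18992 CPM in null and of 1182 (FL) to 5557 CPM (WT) in the other genotypes. Its early genes summed to a mean of 684 CPM in null, 671 in FL, 568 in WT, 548 in FLWF24 and 546 in ΔN. Of the 12 early genes, 9 had negative fitted values in null against FL and 8 against WT. Whether the score of null follows stage or genotype was not tested. With the stage score in place of the factor, *Xrp1* in null was at -0.41 against FL and 0.23 against WT, *rpr* at -0.78 and -0.08, *Corp* at -1.83 and -1.39 and *Diap1* at -0.52 and -0.39, none of them called. In this design an effect of genotype and one of developmental stage cannot be told apart for these genes.

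**Figure D4:**
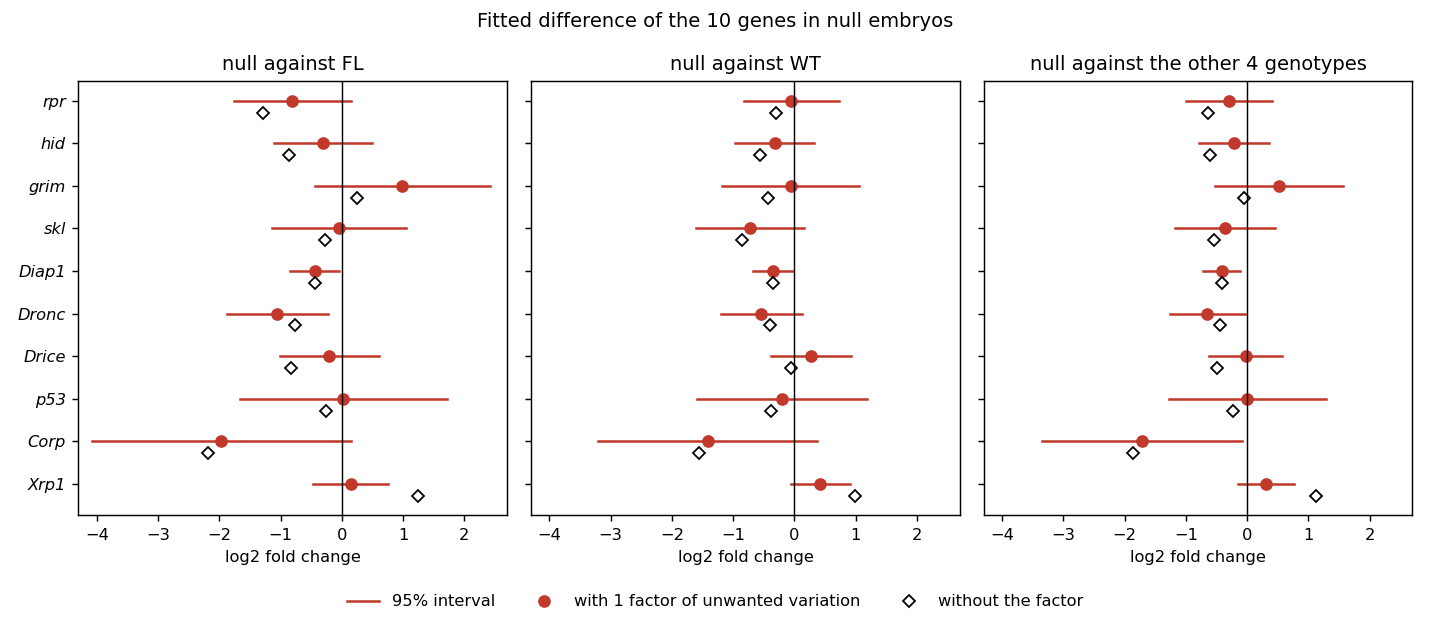
Fitted log2 fold change (horizontal axis) of the 10 genes in null against FL, WT and the other 4 genotypes, with 1 factor of unwanted variation (filled points, lines are 95% intervals) and without it (open diamonds). The value of *Xrp1* against FL is 0.14 with the factor and 1.25 without it, while that of *Diap1* is -0.44 in both.

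Among the transgene lines and the controls, 0 of the 10 genes were called in FLWF24 against FL (0.00835% of all genes were called), FLWF24 against WT (0.184%), ΔN against FL (0.0167%), ΔN against WT (0.0751%), ΔN against FLWF24 (0.342%) or FL against WT (0.109%), and at an unadjusted p under 0.05 the number was also 0 in each of these 6, against 6.4%, 10.1%, 10.6%, 10.4%, 11.8% and 8.77% of all genes in the same order. DESeq2 likewise called 0. Groups without overlap in CPM were *hid* in FLWF24 against FL (1 of 10, lower, against 3.32% of all genes), *rpr* in ΔN against FL (1 of 10, lower, against 5.23%), and in FL against WT *rpr* as higher (1 of 10, against 5.43%) and *grim* and *skl* as lower (2 of 10, against 7.56%). For *rpr* in ΔN against FL the log2 fold change was -0.69 (SE 0.38, interval -1.49 to 0.10, adjusted p = 0.546). For ΔN against FLWF24, 2 lines that both lack Chiffon-A, the fitted log2 fold changes ran from -0.34 (*skl*) to 0.28 (*Xrp1*). The comparisons share libraries of FL, WT and FLWF24 and are not independent.

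Levels were then set against the stage score over the 15 libraries outside null. *Xrp1* was higher at higher scores, with r = 0.72 (p = 0.00409, adjusted over the 10 genes 0.0296) and rho = 0.589 (p = 0.0236, adjusted 0.118). Without the 2 libraries of the most extreme score r was 0.709, and within genotypes it was 0.786. *Drice* was lower at higher scores, with r = -0.68 (p = 0.00592, adjusted 0.0296) and rho = -0.59 (p = 0.0236, adjusted 0.118), r = -0.72 without the 2 most extreme libraries and r = -0.56 within genotypes. Both relations passed the adjusted threshold by r and not by rank. The other 8 genes had r between -0.38 (*rpr*) and 0.16 (*Dronc*), with adjusted p of 0.506 or more. *grim* was at r = -0.24 over these libraries and at -0.70 within genotypes. The 3 null libraries with the most *Xrp1* had scores above those of all other libraries, and null replicate 3, with a score of 1.77 inside the range of the others, also had an *Xrp1* level (364 CPM) inside theirs. The part of stage in the null level of *Xrp1* was not tested.

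**Figure D5:**
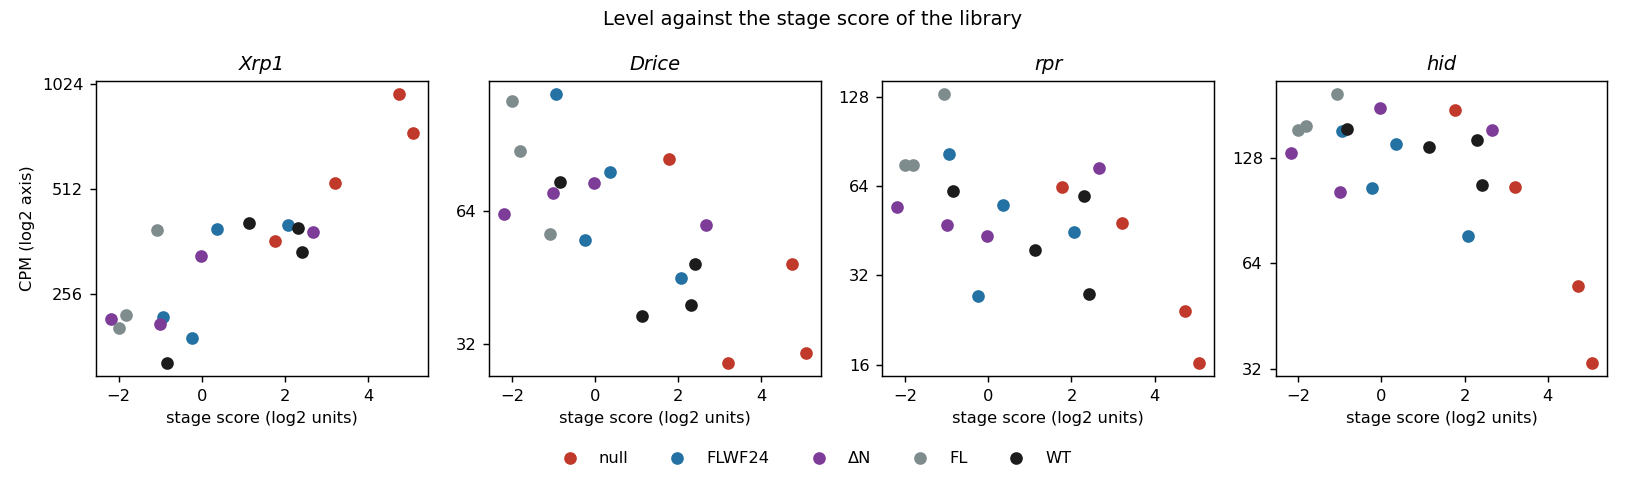
Level (vertical axis, CPM on a log2 axis) of *Xrp1*, *Drice*, *rpr* and *hid* against the stage score of the library (horizontal axis, log2 units), coloured by genotype. *Xrp1* is higher at higher scores inside and outside null, and the null libraries with scores of 3.21 to 5.07 lie beyond the range of the others (-2.18 to 2.67).

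The related genes of the pathway gave few calls. Of 23 other genes of the apoptosis machinery 22 were tested, and 0 were called in any of the 9 comparisons. Of all genes, only 0.00835% to 1.83% were called in these 9, so 0 calls in a list of this size are near that share. At an unadjusted p under 0.05 there were 0 in null against FL, 0 against WT and 1, higher, against the other 4 genotypes, where 8.21%, 6.36% and 11.3% of all genes were higher. Their median log2 fold change was 0.12 in null against FL and 0.11 against WT (all genes 0.05 and 0.03). Among them the effector caspase *Dcp-1* was at 0.05 on the log2 scale against FL (adjusted p = 0.983) and at 0.35 against WT (adjusted p = 0.599), and the stress gene *chrb* at 0.33 against each (adjusted p = 0.623 and 0.502). Of 13 genes of JNK and TNF death signalling, which can trigger the same caspases, 0 were called in any comparison (0.00835% to 1.83% of all genes). At an unadjusted p under 0.05 the adaptor *Traf4* was the only one in null against FL (-0.92, adjusted p = 0.186, with 3.96% of all genes lower) and against WT (-0.56, adjusted p = 0.359, with 5.38%). The phosphatase *puc*, a readout of JNK activity, was at 0.03 against FL (adjusted p = 0.994) and at 0.38 against WT (adjusted p = 0.574).

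Of 24 genes of the DNA damage checkpoint and repair 0 were called in any of the 9 comparisons (0.00835% to 1.83% of all genes). At an unadjusted p under 0.05 there were 2 in null against FL, 0 against WT and 4 against the other 4 genotypes, all lower (3.96%, 5.38% and 5.65% of all genes were lower at this p). In null against FL 18 of the 24 values were negative, with a median of -0.35 (all genes 0.05), against 14 of 24 and a median of -0.13 in null against WT. The checkpoint kinase *lok*, which acts upstream of p53, was at -0.91 on the log2 scale against FL (unadjusted p = 0.0208, adjusted p = 0.302), and at -0.39 against WT (adjusted p = 0.656). For the ribonucleotide reductase gene *RnrS* the values were -0.68 against FL (adjusted p = 0.36) and -0.47 against WT (adjusted p = 0.465). Of 13 partners of Xrp1 and stress response genes 0 were called in the comparisons of null (0.551% to 1.83% of all genes). At an unadjusted p under 0.05, 1 was lower in each (3.96%, 5.38% and 5.65% of all genes) and 1 higher against WT (6.36%) and the other 4 genotypes (11.3%). The translation inhibitor *Thor* came closest, with -2.02 in null against WT (adjusted p = 0.0693) and -1.43 in null against FL (adjusted p = 0.327). In ΔN against FLWF24 1 of the 13 was called, where 0.342% of all genes were called. This was *RpS12*, a ribosomal protein gene needed for Xrp1 induction in cell competition. Its level was lower in ΔN than in FLWF24, with a mean of 436 ± 56.6 CPM in ΔN and 767 ± 92.5 CPM in FLWF24 (SD, n = 4 each). Of the 13 genes, 0 were called in ΔN against FL or WT (0.0167% and 0.0751% of all genes). In FLWF24 against FL or WT 0 were called as well (0.00835% and 0.184%). The calls thus do not show which of the lines differed from the controls. Other ribosomal protein genes were not part of the list.

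Of 10 genes for the clearance of dying cells, 1 was called in comparisons of null. This was *NimC4* (also known as *simu*), an engulfment receptor of glia and macrophages for apoptotic cells. It had 48.2, 95.9, 149.8 and 70.6 CPM in null. The others had 329, 247, 218 and 272 CPM in FLWF24, 202, 349.8, 294 and 316 CPM in ΔN, 319, 315 and 191 CPM in FL and 418, 242, 248 and 236 CPM in WT. All 4 null libraries were below all other 15, which held for 0.609% of all genes. *NimC4* was called in null against WT (-1.35, SE 0.24, adjusted p = 0.00499) and against the other 4 genotypes (-1.18, SE 0.22, adjusted p = 0.00668), and not in null against FL (-1.001, SE 0.29, adjusted p = 0.132). Over all genes, 0.726%, 1.83% and 0.551% were called in these comparisons, in the same order. Against FL only 4 of 28 alternatives called it: without null replicate 3 (adjusted p = 0.0154), without FL replicate 4 (0.0441), without the factor (0.00531) and by DESeq2 (0.0267). With the stage score in place of the factor *NimC4* was at -0.71 against FL (adjusted p = 0.862). The call against WT was lost when only these 2 groups were fitted (-1.21, adjusted p = 0.0602), and that against the other 4 genotypes with the stage score in place of the factor (-1.02, adjusted p = 0.162), at fold changes close to those of the calls. The receptor genes *drpr* and *crq* and the other 7 genes of the list were not called in these comparisons.

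Markers of other cell types were summed in the same libraries. The sum of 8 hemocyte markers ran from 4480 to 11556 CPM in null and from 1194 to 5766 CPM in the other 15 libraries. In null against FL *vkg* was called higher (1 of 8, against 0.551% of all genes called in either direction). Against the other 4 genotypes *vkg* and *Col4a1* were called higher (2 of 8, against 1.83%), and against WT 0 of 8 were called (0.726%). The sum of 7 neuron markers ran from 1537 to 2373 CPM in null and from 728 to 1498 CPM in the others, and that of 8 epidermis markers from 2812 to 3967 CPM in null and from 1727 to 3003 CPM in the others. The null range overlapped with that of the others for hemocyte, epidermis and muscle markers and lay above it for neuron markers. Of the 15 neuron and epidermis markers 0 were called in these 3 comparisons, against the same shares of all genes. Higher in null against FL at an unadjusted p under 0.05 were 5 neuron, 3 epidermis, 8 muscle and 3 hemocyte markers (8.21% of all genes). Against WT these were 2, 1, 2 and 2 in the same order (6.36%). Negative values against FL were seen for 3 of the 8 epidermis and 3 of the 8 hemocyte markers. Of the 9 muscle markers *Act57B*, also a late gene of the stage score, was called higher in each of the 3 null comparisons. This is 1 of 9 in each, against 0.551% (FL), 0.726% (WT) and 1.83% (the other 4 genotypes) of all genes called. The part of these differences in the levels of *Xrp1*, *Diap1*, *Corp* or *NimC4* was not tested.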

How the data were processed

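The table deposited by the authors held whole-number read counts of 17906 entries, with a different total in each library. Reads had been trimmed (Trimmomatic), aligned to BDGP6 (HISAT2) and counted per gene by htseq-count 0.11.1 at its defaults. Here 138 rRNA genes and all entries that were not genes, with 63.6% to 96.0% of all counts, were left out. A later annotation of that assembly gave names and coordinates for 17710 of 17807 identifiers. htseq-count reads strand by default, and whether the kit kept the strand is not given in the sources used here, so genes with antisense partners are uncertain. FL libraries keep the numbers 2 to 4 of the table, where the labels use others, and were matched as a group.

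Counts of all 19 libraries were tested in 1 fit by the quasi-likelihood test of edgeR 4.0.16 (R 4.3.3, robust, TMM, filterByExpr by genotype, 11978 genes) with 1 RUVs factor, written out in R with all tested genes as controls. The study does not state how many factors it used. Calls required a Benjamini-Hochberg adjusted p (over the 11978 genes) under 0.05 together with a log2 fold change of 0.5 or more in size. Intervals (95%) use the SE, which is the log2 fold change over the square root of F. P-values are two-sided. Correlations used log2(CPM + 1). The scripts were tested on simulated data. Alternatives were 0 or 2 factors, RLE or upper-quartile scaling, DESeq2 1.42.0, no count filter or at least 10 counts on average, the stage score as covariate, the compared groups alone, a replicate block, and each library left out. Genes were named by a rule: the 10 genes, the genes of each related list called in null against FL or WT or with the 2 smallest p there, of which some are given values, the genes from *hid* to *skl*, the 3 most alike to each death gene, and *chiffon*. *RpS12* in ΔN, *CG5103*, *CG7320*, *CG13700* and *CheA75a* and the genes called against the other 4 genotypes were singled out after their values were seen. The 10 genes and all lists were chosen with earlier results of these data known.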

Additional observations from a re-analysis of the deposited data

Results flagged for a closer look

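In groups of 4 libraries, a library was singled out where its gap to the nearest other passed Dixon's 95% value for the range of the group, which chance gives in about 1 in 20 groups. Of 40 groups tested, 3 had such a library. *skl* in ΔN replicate 1 was at 46.3 CPM, against 12.7 to 16.9 CPM in the other ΔN libraries. *Diap1* in ΔN replicate 4 was at 899 CPM, against 679.7 to 707 CPM. *p53* in null replicate 1 was at 19.6 CPM, against 8.67 to 9.20 CPM. ΔN replicate 4 and null replicate 1 are the libraries with the fewest gene counts and the largest shares of rRNA and of reads outside genes, and the part of these in the values was not tested.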

How the results depend on the processing

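Of 980 fold changes of the 10 genes under 29 alternatives (35 results of the report), 916 kept their direction and their side of the threshold, 4 passed it, 0 lost a call and 60 changed sign, 39 of these on leaving out a library. Without the factor of unwanted variation 2 of the 10 genes were called when null was set against FL and 2 against the other 4 genotypes, against 0 with it, and over all genes 1308 and 3168 were called, against 66 and 219. DESeq2 called 530, 357 and 723 genes in null against FL, WT and the other 4 genotypes (66, 87 and 219 by edgeR) and 0 of the 10. With the stage score in place of the factor 3 genes were called in null against FL and 12 against the other 4 genotypes. The cause of these differences was not tested. Leaving out 1 library moved the count over all genes between 22 (without FL replicate 3) and 365 (without null replicate 3) against FL, 38 (without WT replicate 3) and 285 (without null replicate 3) against WT, and 46 (without FLWF24 replicate 3) and 730 (without null replicate 3) against the other 4 genotypes, with 0 of the 10 genes called in each.

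Values that changed sign were all of genes not called in the fit with 1 factor. Among them was *Xrp1* in null against FL and the other 4 genotypes, which was called higher without the factor (1.25 and 1.13). Without the factor, *p53* was at -0.25 in null against FL and -0.22 against the other 4 genotypes, *Drice* at -0.048 against WT and *grim* at -0.054 against the other 4. With 2 factors, *skl* was at 0.14 and *p53* at -0.030 against FL, *grim* at 0.011 against WT and *p53* at -0.027 against the other 4. Upper-quartile scaling put *p53* at -0.063 against FL and -0.10 against the other 4. With the stage score, null against FL was at 0.31 for *skl*, 0.23 for *Drice*, -0.36 for *p53* and -0.41 for *Xrp1*, *grim* was at 0.19 against WT, and against the other 4 *Drice* was at 0.24, *p53* at -0.30 and *Xrp1* at -0.038. With only the compared groups, *hid* was at 0.25 and *p53* at -1.05 against FL and *rpr* at 0.24 against WT. On leaving out 1 library, null against FL ran from -0.22 to 0.041 for *skl*, -0.72 to 0.017 for *Drice*, -0.46 to 0.37 for *p53* and -0.057 to 0.50 for *Xrp1*. Against WT the ranges were -0.44 to 0.13 for *rpr*, -0.33 to 0.075 for *grim*, -0.13 to 0.47 for *Drice* and -0.55 to 0.073 for *p53*, and against the other 4 genotypes -0.48 to 0.18 for *Drice* and -0.47 to 0.31 for *p53*.

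Deviations from the genotype mean gave correlations of -0.43 to 0.25 (24 pairs, median 0.015) between libraries of the same replicate number. For libraries of other numbers they were -0.42 to 0.46 (72 pairs, median -0.003). No pairing by number was thus seen, although a small shared effect could go unseen in this way. With the replicate block 71 genes were called in null against WT (87 without), 22 in FLWF24 against WT (22), 4 in ΔN against WT (9) and 16 in ΔN against FLWF24 (41), and 0 of the 10 genes in each. No paired analysis was possible for comparisons with FL because its numbers differ from those of the labels. For the lowest genes, *Corp* with 12 to 357 counts and *grim*, counting error adds to the spread between libraries.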
